A study of Mus musculus with 9 samples.

Results

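The 3 wild type arrays of this mouse series describe the baseline transcriptome of CD135+ LSK cells: bone marrow cells sorted by flow cytometry as lineage-, CD117+, SCA-1+ and CD135+. They were taken as the arrays titled WT control, 3 of 9 in all, with no measured value used in the choice. The other arrays, 3 of E2A-/- and 3 of Lyl1-/- mice, hold cells of the same sort and were not compared here. The labels name no treatment, age or strain for the wild type mice, and RNA was prepared from the sorted population as a whole. Each of 18193 genes was represented by its brightest probe set, and genes were ordered by mean log2 intensity over the wild type samples.

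CD117 is the protein of Kit, the receptor for stem cell factor, and CD135 is the protein of Flt3, the receptor for FLT3 ligand. The LSK compartment of mouse marrow holds the haematopoietic stem cells together with multipotent progenitors. Gain of Flt3 is known to accompany loss of long-term self-renewal, and LSK cells rich in Flt3 are known as lymphoid-primed multipotent progenitors. Such cells are known for multilineage priming, the presence of transcripts of several blood lineages before commitment to any of them.

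Intensities are on the linear scale of the deposited values, and triplets are given in the order WT 1, WT 2 and WT 3. The median probe set read 78.5, 79.1 and 78.6, and the lowest probe set read 44.5, 43.4 and 43.2, so the median itself lies close to the floor of the arrays. A gene is called clearly above when it reached at least 2-fold the array median on each of the 3 arrays, which is 157 or 158 in intensity, and near the floor when it was at or below the median on each. Of all genes, 5534 (30.4%) were clearly above, 6218 (34.2%) were near the floor and 6441 lay between. As a reference for signal without transcript, 45 genes of tissues outside blood were listed, and 8229 genes (45.2%) exceeded the 95th percentile of that list on each array, which was 105, 99.2 and 103. The intensity of a probe set depends on its probes, so the order ranks signals and not numbers of transcripts. In RNA from a population, fewer cells with a transcript and less transcript per cell cannot be told apart.

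WT 1 and WT 3 stood closer to each other than either did to WT 2. The robust SD of their log2 difference was 0.0716 among the dimmest 20% of probe sets and 0.0831 among the brightest 20%, with 0 probe sets beyond 2-fold. Against WT 2 the spread among the brightest was 0.296 and 0.294, and 100 and 92 probe sets passed 2-fold. The labels call all 3 biological replicates, but the difference between WT 1 and WT 3 was near the noise of dim probe sets, so they were counted as 1 sample and each mean and SD has n = 2. The actin 3' over 5' intensity ratio, a measure of RNA integrity, was 3.01, 10.6 and 3.32, which sets WT 2 apart.

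The genes of the sort were clearly above the median on every array. Flt3 read 1302, 1052 and 1254, which is 14.7-fold the median (SD 0.20 on the log2 scale, n = 2) and rank 608 of 18193. Kit read 508, 465 and 474, or 6.06-fold the median (SD 0.054, n = 2). A further probe set of Kit read 96.1, 113 and 106, between the limits, so the call for Kit rests on its brighter probe set. Cd34, a sialomucin of early blood progenitors that was not part of the sort, read 1679, 1330.1 and 1709, or 19-fold the median (SD 0.25, n = 2). WT 2 gave the lowest reading for each of the 3 genes. Ly6a, the SCA-1 gene, was not matched to a probe set. The promoters of the 3 genes are shown because base composition is compared with signal further on. They are RefSeq sequences of build GRCm38.p6, 5' to 3' on the gene's strand, 250 bases before to 50 after the start of the transcript. Capitals mark CG pairs and, where present, the TATA motif TATAAA on either strand. The windows lie at chr5:147400440-147400739 on the minus strand for Flt3, chr5:75574737-75575036 on the plus strand for Kit and chr1:194938571-194938870 on the plus strand for Cd34.
Flt3: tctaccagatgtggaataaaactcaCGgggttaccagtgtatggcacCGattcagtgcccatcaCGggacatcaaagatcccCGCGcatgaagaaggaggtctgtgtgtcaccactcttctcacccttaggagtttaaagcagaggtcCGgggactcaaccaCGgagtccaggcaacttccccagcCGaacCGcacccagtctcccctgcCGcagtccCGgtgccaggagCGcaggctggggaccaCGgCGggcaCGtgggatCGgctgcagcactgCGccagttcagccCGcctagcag
Kit: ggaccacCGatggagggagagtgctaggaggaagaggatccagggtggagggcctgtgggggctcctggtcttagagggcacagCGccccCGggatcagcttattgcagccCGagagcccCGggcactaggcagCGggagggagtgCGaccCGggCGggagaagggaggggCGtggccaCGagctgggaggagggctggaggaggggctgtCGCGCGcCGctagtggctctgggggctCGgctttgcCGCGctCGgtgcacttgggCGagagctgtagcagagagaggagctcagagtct
Cd34: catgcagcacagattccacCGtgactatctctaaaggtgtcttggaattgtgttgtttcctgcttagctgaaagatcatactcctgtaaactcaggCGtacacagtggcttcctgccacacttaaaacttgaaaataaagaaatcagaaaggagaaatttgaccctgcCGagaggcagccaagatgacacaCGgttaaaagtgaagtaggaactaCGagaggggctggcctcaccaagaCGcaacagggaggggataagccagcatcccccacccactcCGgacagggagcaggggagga
These windows hold 18, 20 and 7 CG pairs, and none of them holds a TATA motif.

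Antigens that lineage antibodies usually detect were low. Of 7 measured, 0 were clearly above and 4 were near the floor. The B cell antigen Ms4a1 read 59.3, 65.7 and 61.7. Itgam, the CD11b chain of myeloid cells, read 59.1, 59.7 and 60.8, and the T cell antigens Cd5 and Cd2 were near the floor as well. Cd3e, a chain of the T cell receptor complex, was the brightest of the 7 at 114, 120.1 and 106, the only one above the reference percentile on all arrays. Of the 45 genes of other tissues, 31 (68.9%) were near the floor and only Cela1, a pancreatic elastase, was clearly above at 228, 265 and 217.

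**Figure D1:**
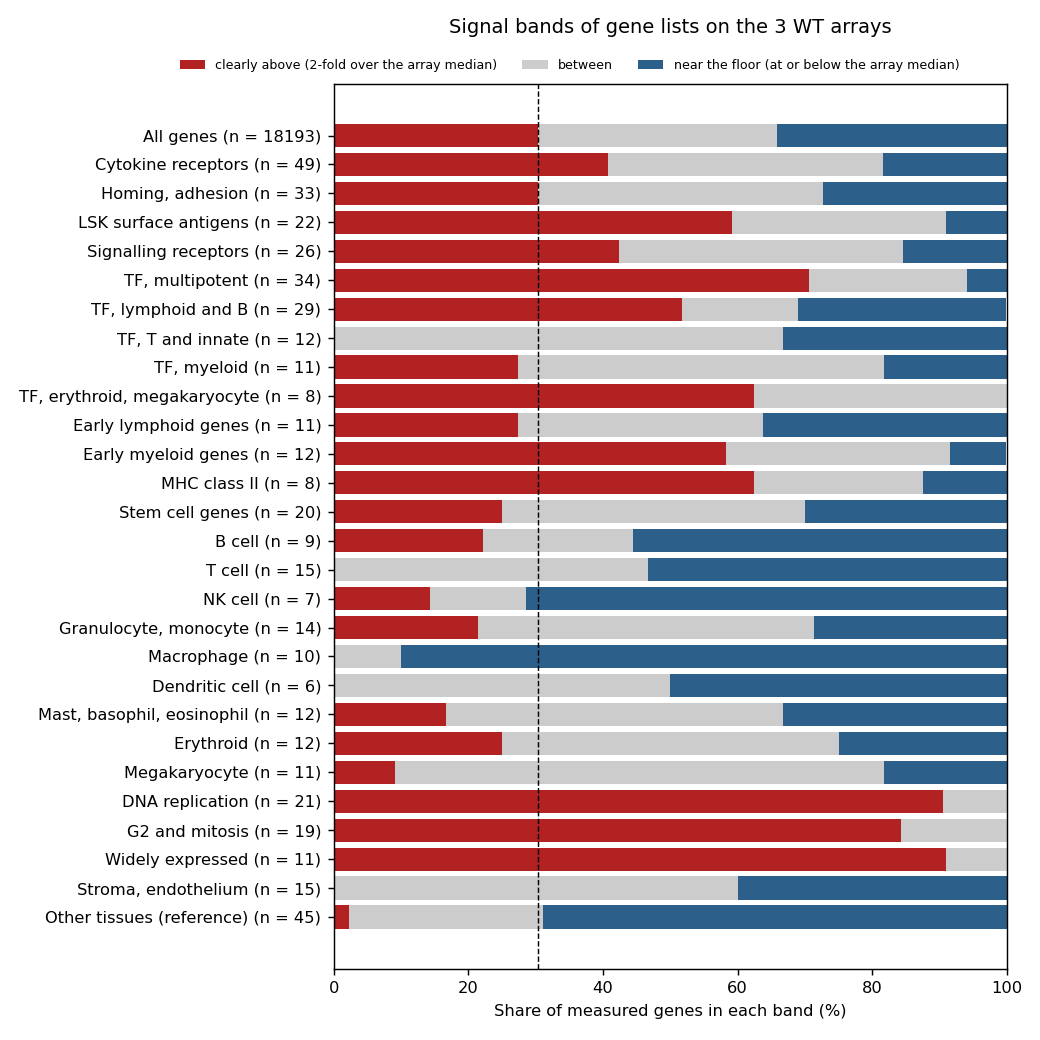
Share of the measured genes of each list that were clearly above (red), between (grey) or near the floor (blue) on the 3 WT arrays, in percent; the dashed line marks the 30.4% of all genes that were clearly above. DNA replication and mitosis genes and multipotency factors extend far past the line, as do widely expressed genes, and macrophage, T cell and other-tissue genes stay short of it.

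Cytokine receptors ranged from Crlf2 and Flt3, far above the median, to several interleukin receptors near the floor. Of 49 measured, 20 (40.8%) were clearly above and 9 (18.4%) were near the floor. Crlf2, a subunit of the receptor for thymic stromal lymphopoietin, had the highest signal of the list at 1289, 1266 and 1332. Its partner chain Il7r, also the receptor for interleukin-7, read only 91.7, 128 and 101, and its other probe set was near the floor at 62.1, 62.4 and 61.1. The granulocyte colony-stimulating factor receptor Csf3r read 551, 339 and 532 (5.43-fold, SD 0.48, n = 2), with WT 2 below both others. Csf1r, the macrophage colony-stimulating factor receptor, read 383, 289.9 and 379 on its brightest probe set, while its other probe sets lay between the limits. Csf2rb, the shared chain for interleukin-3, interleukin-5 and granulocyte-macrophage factor, read 426, 528 and 403. The ligand-specific chains were dimmer: Csf2ra read 107, 135 and 114, Il3ra read 108, 111 and 95.9, and Il5ra was near the floor at 55.5, 59.1 and 58.5.

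Several receptors for inhibitory and inflammatory signals were clearly above. Tgfbr2 and Tgfbr1, the receptor pair for TGF-beta, read 422, 398 and 413 and 243, 236 and 234 on their brightest probe sets, and the 2 other probe sets of each were near the floor. Tnfrsf1a, the main receptor for tumour necrosis factor, read 497, 538 and 479. Both chains of the type I interferon receptor were clearly above, Ifnar2 at 442, 338 and 425 and Ifnar1 at 162, 193 and 163. Ifngr1, of the type II interferon receptor, fell just outside the limit at 225, 138 and 207 because of WT 2. Il1r1, the interleukin-1 receptor, read 356, 348 and 349, with its other probe set near the floor. Epor, the erythropoietin receptor, lay between the limits at 96.7, 98.3 and 94.8. The interleukin-2 receptor chains Il2ra and Il2rb were near the floor, as were Il9r, Il12rb2, Lifr and Osmr.

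Among 33 homing and adhesion genes, 10 (30.3%) were clearly above, close to the share of all genes, and they were adhesion molecules. Cd44, the hyaluronan receptor, read 1169, 1096 and 1198. Cd47, which protects cells from phagocytosis, read 1419.8, 939 and 1380.2. Selplg, the ligand of the selectins, read 919, 799.9 and 859. Of the integrins, Itga4, Itga6, Itgav and Itgb7 were clearly above, with Itga4 at 386, 453 and 368, though 4 of the 5 probe sets of Itgav were near the floor. Itgb1, the common partner of several alpha chains, read 106, 89.4 and 101 on the brightest of its 6 probe sets. None of the 14 chemokine receptors matched by symbol was clearly above and 7 were near the floor. Cxcr4, which holds progenitors in the marrow, was the brightest of these at 133, 152 and 117. Ccr9, a receptor of thymus-seeding cells, read 82.7, 172 and 85.9. Its other 4 probe sets were near the floor on all arrays, WT 2 included.

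Surface antigens that subdivide the LSK compartment were mostly clearly above, with 13 of 22 (59.1%), and 2 were near the floor. Cd24a, an antigen of early B and myeloid cells, read 2415, 2607 and 2366. Cd48, which is known to be carried by multipotent progenitors and absent from long-term stem cells, read 644, 703 and 586. Cd27, a marker of lymphoid-primed progenitors, read 392, 301 and 405. Slamf1, the CD150 antigen of long-term stem cells, was near the floor at 66.8, 75 and 71.8. Procr, another stem cell antigen, was clearly above at 470.1, 487 and 466 (SD 0.039, n = 2) on its only probe set, which can match other transcripts. Ly6d, which marks committed lymphoid progenitors, lay just above the median at 79.9, 84.5 and 82.5. Cd244a was the dimmest antigen inside the limit at 161, 188 and 157, and Cd69 was the brightest outside it at 149, 156 and 150.2.

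Of 26 further signalling receptors, 11 (42.3%) were clearly above. Notch2 read 1148, 1162 and 1149 and Notch1, which directs T cell specification, read 798, 537 and 757, whereas Notch3 and Notch4 were near the floor. The adhesion receptors Adgrl4 and Adgrg1 read 2576, 1789 and 2468 and 1102, 733 and 1144. Fzd6 and Lrp6, receptors for Wnt ligands, were clearly above on their brightest probe sets, and their other probe sets were near the floor. Fzd1, Fzd4 and Fzd7 lay between the limits. None of the 11 Toll-like receptors matched by symbol was clearly above, with Tlr2 the brightest at 147, 123 and 138. Taking the 4 lists as 130 receptor genes, 54 (41.5%) were clearly above against 30.4% of all genes, and 24 (18.5%) were near the floor against 34.2%. Lists of genes known from blood differ from all genes in how they were chosen, so these shares are a description.

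**Figure D2:**
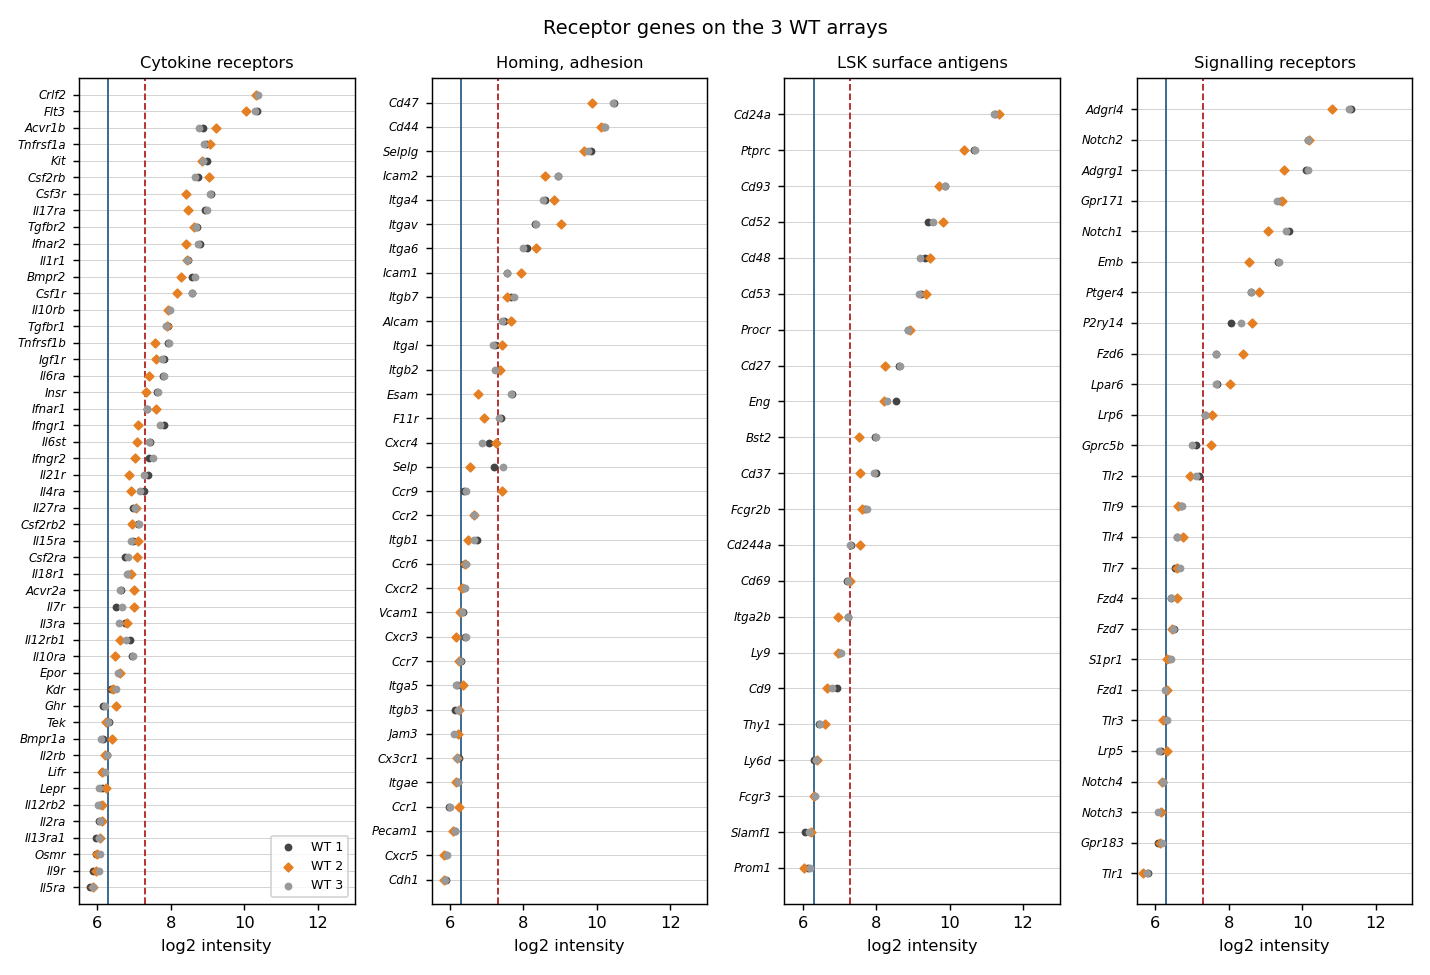
Log2 intensity of each measured receptor gene on WT 1 (dark points), WT 2 (orange diamonds) and WT 3 (grey points), by list; the solid line is the array median and the dashed line 2-fold above it. WT 1 and WT 3 nearly coincide for most genes, Crlf2 and Flt3 lead the cytokine receptors, and chemokine receptors lie left of the dashed line except Ccr9 on WT 2.

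Transcription factors of stem and multipotent cells were the most widely present. Of 34 measured, 24 (70.6%) were clearly above and 2, Hoxa10 and Hoxb5, were near the floor. Myb, required for definitive haematopoiesis, read 2516, 2406 and 2550.5 on a probe set that can match other transcripts, and 394, 395 and 354 and 137, 143 and 144 on its other probe sets. Lmo2, a bridging subunit of the Tal1 complex, read 2311, 1740.3 and 2283. Lyl1, the basic helix-loop-helix factor deleted in another group of the study, read 1429, 1352 and 1443. Its relative Tal1 read 472, 322 and 443 (4.87-fold, SD 0.36, n = 2). Gata2, which acts in the same complex, read 384, 292 and 386. Meis1, Etv6, Erg, Runx1 and Fli1 were also clearly above, with Meis1 at 959, 1005 and 945.

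Hox genes showed a strong signal in 1 member. Hoxa9, the partner of Meis1 in progenitors, read 1158, 1738 and 1141 (17.9-fold, SD 0.42, n = 2), with WT 2 above both others. It was the only gene clearly above among 9 Hoxa genes, and 0 of 9 Hoxb, 0 of 7 Hoxc and 0 of 8 Hoxd genes were. Next among the Hoxa genes came Hoxa5 at 148, 188 and 153 and Hoxa7 at 157, 132 and 148. Hoxb4 read 108, 107 and 106.

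Of 29 lymphoid factors, 15 (51.7%) were clearly above and 9 (31.0%) were near the floor, against 30.4% and 34.2% of all genes. Ikzf1 (Ikaros), needed for lymphoid priming, read 897, 828 and 896. The E protein genes Tcf4, Tcf12 and Tcf3 read 728, 847 and 719, then 372, 453 and 361, and 205, 164 and 195. Tcf3 encodes E2A, the other factor deleted in this study. The call for Tcf3 rests on its brightest probe set. Its other probe sets read 83.3, 68.4 and 79.8, between the limits, and 73.7, 72.0 and 74.3, near the floor. With its probe sets averaged, Tcf3 lay between the limits at a mean of 99.6. Foxp1, Bcl11a, Sox4, Satb1, Mef2c and Runx3 were clearly above too, with Satb1 at 593, 738 and 625. Foxo1 was clearly above at 244, 253 and 232 only on a probe set that can match other transcripts, and lay between the limits without it. Ebf1 and Pax5, which specify and commit B cells, were near the floor. All 5 probe sets of Ebf1 were near the floor, the brightest at 61.9, 62.0 and 57.7. Pax5 read 75.4, 74.0 and 71.2. The E protein antagonists were low, with Id2 at 103, 92.0 and 101, Id1 at 79.9, 69.2 and 75.1, and Id3 and Id4 near the floor.

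Factors of T and innate lymphoid cells were not clearly above in any of 12 cases. Gata3 read 85.6, 79.7 and 79.1, and Bcl11b, Eomes, Foxp3 and Tbx21 were near the floor. Of 11 myeloid factors, 3 (27.3%) were clearly above, close to the 30.4% of all genes. Spi1 (PU.1), which drives both myeloid and lymphoid fates, read 315, 230.2 and 323. Irf8, of monocyte and dendritic progenitors, read 500.0, 216 and 514, so that WT 2 lay well under the other arrays (SD 0.87, n = 2). Its other probe set read 146, 105 and 158. The third was Nfe2l2, a regulator of the oxidative stress response, at 353, 294 and 349. Cebpa, which granulocyte commitment requires, lay between the limits at 95.7, 96.4 and 101. Among 8 erythroid and megakaryocyte factors, 5 were clearly above and 0 near the floor. Nfe2, of megakaryocytes and red cells, read 1353, 1266 and 1341. Gata1 read 108, 129 and 115 and Klf1 119.6, 147 and 119, both between the limits. Over all 94 transcription factors, 47 (50%) were clearly above and 17 (18.1%) near the floor, against 30.4% and 34.2% of all genes.

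**Figure D3:**
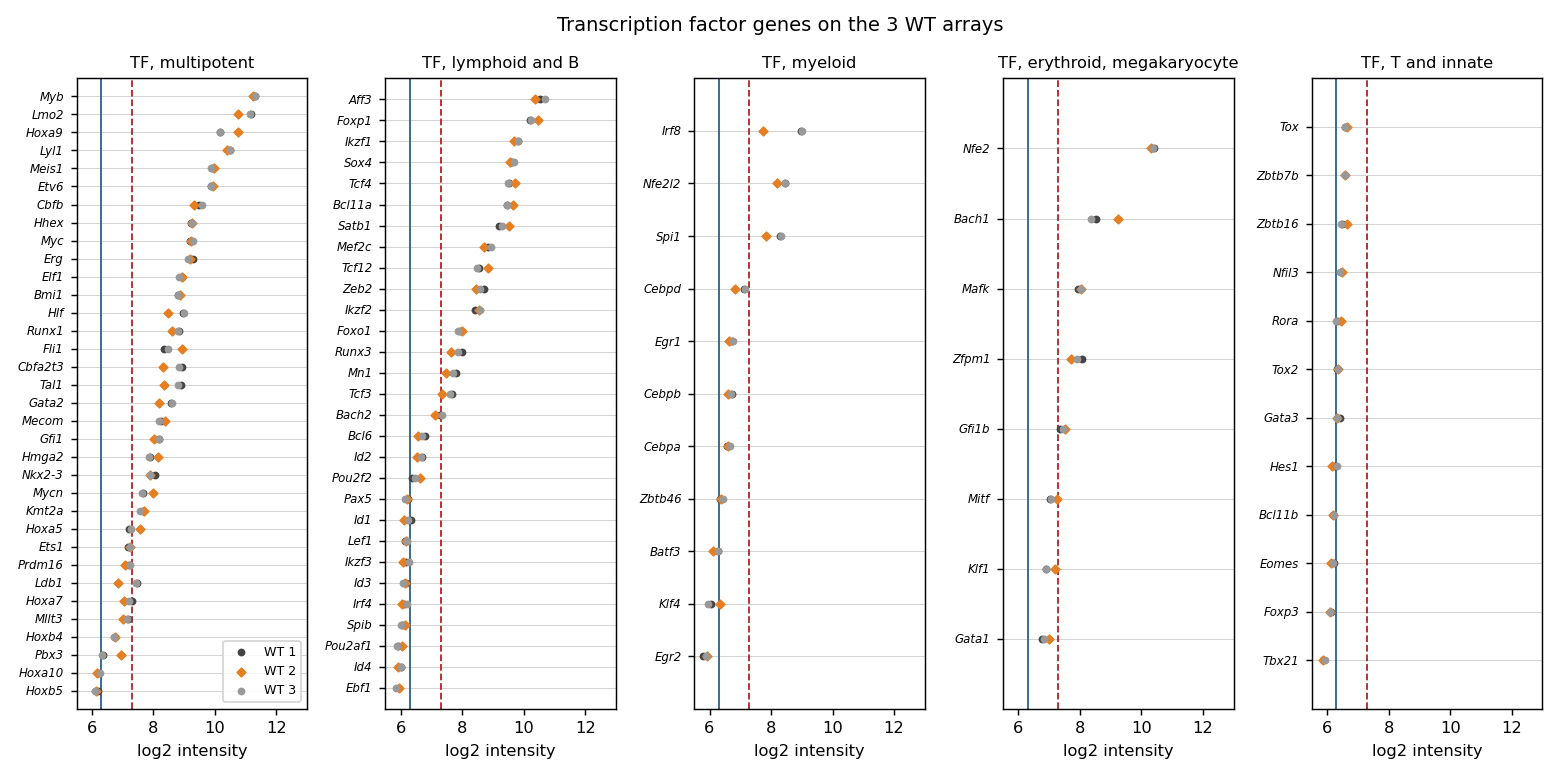
Log2 intensity of each measured transcription factor gene on WT 1 (dark points), WT 2 (orange diamonds) and WT 3 (grey points), by list; the solid line is the array median and the dashed line 2-fold above it. Factors of multipotent cells lie mostly right of the dashed line, lymphoid factors form a bright group led by Aff3 and a group near the floor that ends in Ebf1, and all T and innate factors lie left of the dashed line.

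Of 11 early lymphoid genes, 3 (27.3%) were clearly above and 4 (36.4%) were near the floor, close to the 30.4% and 34.2% of all genes. Dntt, the terminal transferase that adds bases at joints of antigen receptor genes, read 3795, 4171 and 3916 and ranked 94 of 18193 on a probe set that can match other transcripts. Without that probe set its mean intensity was 808 in place of 4009.8, still clearly above. Its other probe sets were also clearly above but disagreed on WT 2: they read 1229, 559.9 and 1108, and 381, 598 and 364. The recombinase genes Rag1 and Rag2, which act in the same reaction, were near the floor at 60.6, 59.6 and 56.7 and at 73.9, 78.2 and 78.5. Ighm, the IgM heavy chain, read 1805, 2749.7 and 1872. Its 11 probe sets ranged widely, with 2 clearly above and 5 near the floor. One that lay between the limits read 933, 75 and 1051, so it was bright on WT 1 and WT 3 and under the median on WT 2. Cd79b, a signalling chain of the B cell receptor, read 187, 173 and 194, and its partner Cd79a was near the floor at 69.7, 74.9 and 68.5. The surrogate light chain genes Vpreb1 and Igll1 read 91.8, 121 and 94.1 and 92.9, 103 and 88.6.

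Early myeloid genes had some of the strongest lineage signals. Of 12, 7 (58.3%) were clearly above and 1 (Cybb) was near the floor. Mpo, the peroxidase of primary granules, read 7119, 4999.7 and 7059.9, which is 75.5-fold the median (SD 0.36, n = 2) and rank 44. The granule proteases Prtn3 and Ctsg read 2444, 1148 and 2283 and 1664, 977 and 1685. Elane, the elastase of the same granules, read only 180.0, 119 and 168, and WT 2 kept it outside the limit. Lyz2, lysozyme of myeloid cells, read 872, 540.5 and 845. Lyz1 read 3409.5, 3096 and 3527, but on a probe set whose suffix marks that it can match other transcripts, and its gene-specific probe set was near the floor at 69.4, 68.5 and 70.9. The Lyz1 signal is therefore uncertain. WT 2 lay under both other arrays in 9 of the 11 early myeloid genes above the median on at least 2 arrays (81.8%), against 44.9% of all genes so filtered. High shares were also found in other lists. They were 8 of 11 widely expressed genes (72.7%), 5 of 7 MHC class II genes (71.4%) and 5 of 6 mast cell, basophil and eosinophil genes (83.3%). The early lymphoid list went the other way, with 1 of 7 (14.3%). The promoters of Dntt and Mpo follow, the lymphoid and the myeloid gene with the strongest signal in their lists, at chr19:41029025-41029324 and chr11:87793534-87793833, both on the plus strand.
Dntt: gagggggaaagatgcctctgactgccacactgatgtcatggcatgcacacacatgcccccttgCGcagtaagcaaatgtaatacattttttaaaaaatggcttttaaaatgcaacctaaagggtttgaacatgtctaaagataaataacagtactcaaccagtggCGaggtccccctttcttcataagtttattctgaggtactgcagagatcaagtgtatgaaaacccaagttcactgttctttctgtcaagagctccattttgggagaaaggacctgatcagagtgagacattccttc
Mpo: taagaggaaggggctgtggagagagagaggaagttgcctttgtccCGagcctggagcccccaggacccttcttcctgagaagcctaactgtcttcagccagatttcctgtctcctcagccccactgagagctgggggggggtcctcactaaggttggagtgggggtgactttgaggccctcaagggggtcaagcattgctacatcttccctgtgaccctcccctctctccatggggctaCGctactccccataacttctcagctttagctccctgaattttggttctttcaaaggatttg
Each holds 2 CG pairs, with CG found at 0.15 and 0.09 of the frequency expected from the C and G content.

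Over 9 lists of mature cell genes with 96 measured genes, 12 (12.5%) were clearly above, 43 (44.8%) near the floor and 41 between, against 30.4% and 34.2% of all genes. None of 15 T cell, 10 macrophage or 6 dendritic cell genes was clearly above, and 9 of the 10 macrophage genes were near the floor, C1qa, Adgre1 and Marco among them. Of 14 granulocyte and monocyte genes, S100a8 (446, 335 and 469.6), S100a9 (356, 272 and 332) and Ngp (172, 163 and 172) were clearly above, while Mmp8, Mmp9, Cd177 and Itgam were near the floor. Among 9 B cell genes the signalling genes Cd72 (326, 392 and 278) and Btk (329, 307 and 322) were clearly above and Cd22, Blk and Cr2 near the floor. Nkg7, a granule membrane protein of cytotoxic cells, read 918, 659 and 887, whereas Gzma, Gzmb and Ncr1 were near the floor. So in the natural killer list 1 of 7 genes carried the signal.

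Of 12 erythroid genes 3 (25%) were clearly above and 3 near the floor, not far from the shares of all genes. Car2, a carbonic anhydrase of progenitors and red cells, read 1511, 823 and 1545 (14.2-fold, SD 0.63, n = 2). Hemgn and Tfrc, the transferrin receptor, were the others clearly above. Hba-a1, the alpha globin gene, was near the floor at 65.2, 69.9 and 67.6. Pf4, platelet factor 4, read 198, 286 and 195 and was the only one of 11 megakaryocyte genes clearly above. Vwf, von Willebrand factor, read 81.5, 79.4 and 80.8. Prg2, an eosinophil granule protein, read 341, 160.1 and 314, and the basophil protease Mcpt8 read 219, 177 and 199.6, while of the mast cell genes Cpa3 read 95.8, 105 and 87.8 and Fcer1a was near the floor. MHC class II genes were clearly above in 5 of 8 cases, with H2-Aa at 764, 681 and 690.5. All 4 probe sets of H2-Aa can match other transcripts, and 2 of them lay between the limits. H2-Ab1 lay between the limits without such probe sets. Their invariant chain Cd74 read 139, 133 and 127, and Ciita, the activator of the class, was near the floor at 78.5, 77.0 and 69.0.

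Of 20 genes of long-term stem cells, 5 (25%) were clearly above: Procr, Hlf, Mecom, Pdzk1ip1 and Ndn. Hlf, a factor of stem cell quiescence, read 504, 353 and 509.5, and Mecom read 305, 334 and 292. Other probe sets of Mecom were near the floor, with means of 74.2 and 54.7. Pdzk1ip1 read 373, 666 and 371, highest on WT 2. Fgd5, another stem cell marker, lay at the limit with 146, 166 and 153. Slamf1, Hoxb5, Clec1a and Clca3a1 were near the floor, and Cdkn1c, the p57 inhibitor of quiescent stem cells, read 77.8, 80.0 and 77.5.

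Most genes of the division machinery were clearly above. Of 21 DNA replication genes, 19 (90.5%) were clearly above, and of 19 genes of G2 and mitosis, 16 (84.2%), with 0 near the floor in either list. Plk1, Aurka and Kif11, of G2 and mitosis, lay between the limits. All 6 subunits of the MCM helicase, Mcm2 to Mcm7, were clearly above. Mcm7 had the strongest signal at 5020.0, 5430.1 and 5023, on a probe set that can match other transcripts, and a mean of 421 without such probe sets, still clearly above. Mki67, the proliferation antigen Ki-67, read 2470.1, 2533 and 2346, and Top2a read 1557, 1258 and 1605. Tyms, the thymidylate synthase, was an exception at 80.5, 82.9 and 74.3 on the brightest of 4 probe sets. Of the cyclin E genes, Ccne2 read 76.4, 78.4 and 81.1. Ccne1 read 183, 178 and 178 on a probe set that can match other transcripts, and lay between the limits without it. Rrm2 and Gins2 also lay between the limits without such probe sets, at means of 143 and 164. CDK inhibitors were fewer above the limit, 2 of 10: Btg1, an antiproliferative gene, and Cdkn2c. Cdkn1b (p27) read 152, 198 and 169.8, and Cdkn2a and Cdkn2b were near the floor.

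The top of the ranking belonged to protein synthesis. Of the 10 genes with the strongest signal 9 were ribosomal protein genes, of the 30 strongest 25, and of the 100 strongest 34. Rpsa led at 13902, 13185 and 13694. The others among the 30 were Tpt1, the elongation factor Eef1a1, the poly(A)-binding protein Pabpc1, the chaperone Hspa8 and Actb. Of 49 ribosomal protein genes matched by symbol, 43 were clearly above, and 3 were near the floor: Rpl3l, Rpl39l and Rps16. Each of these 3 had only 1 probe set. Whether the low reading of Rps16 comes from the transcript or from the probes was not tested. As a contrast, 36 of 38 olfactory receptor genes were near the floor and 0 clearly above. These families, and the Hox, chemokine and Toll-like receptor families, were matched after values had been seen.

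WT 2 departed from the other arrays by more than 2-fold in few genes. Of 11319 genes above the median on at least 2 arrays, 25 (0.221%) were lower and 11 (0.0972%) higher by that measure, and 93.7% lay within 0.5 on the log2 scale, against 86.7% of the 330 listed genes among them. The largest departure was Rpgrip1, a photoreceptor protein, at 454, 2586 and 454. Cdc37, a cochaperone of kinases, lay furthest below at 1077, 309.8 and 1095. Psmd2 and Stub1, of protein degradation, read 644, 262 and 654 and 662, 276 and 632. Of the 330 listed genes that passed this filter, 4 were beyond 2-fold lower, Irf8, Tk1, Prtn3 and Prg2, and 1 higher, Ccr9. The filter keeps genes below the median only on WT 2 and drops genes above it only on WT 2. The counts therefore lean toward lower. Col1a2, a listed gene, was dropped in this way, although it stood 2.47 higher in WT 2 on the log2 scale. Igkv8-30, an immunoglobulin light chain segment, read 144, 61.6 and 164, the same direction as the Ighm probe set that was bright on WT 1 and WT 3 alone. The actin ratio of WT 2 (10.6) moves with all of these differences, and its part in them was not tested.

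Signal of 2 collagen genes set WT 2 apart as well. Col1a2, of bone and connective tissue, read 72.2, 415 and 77.8 on its brightest probe set and 57.7, 161 and 57.2 on the next. Col1a1 read 66.7, 129.8 and 65.0. The summed intensity of the 15 stroma and endothelium genes was 1166, 1595 and 1196, and 2, 4 and 2 of them exceeded the reference percentile. That sum includes the 2 collagen genes, which had the largest differences of the list. Of the others, 6 were near the floor on all arrays, Col3a1, Lum, Adipoq and Cdh5 among them. Smaller differences of WT 2 on the log2 scale went both ways. Sparc and Bgn stood at 0.28, Emcn at -0.20, Adipoq at -0.18, and Cxcl12 and Ibsp at -0.11. The part of stromal transcripts in other values of WT 2 was not tested.

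**Figure D4:**
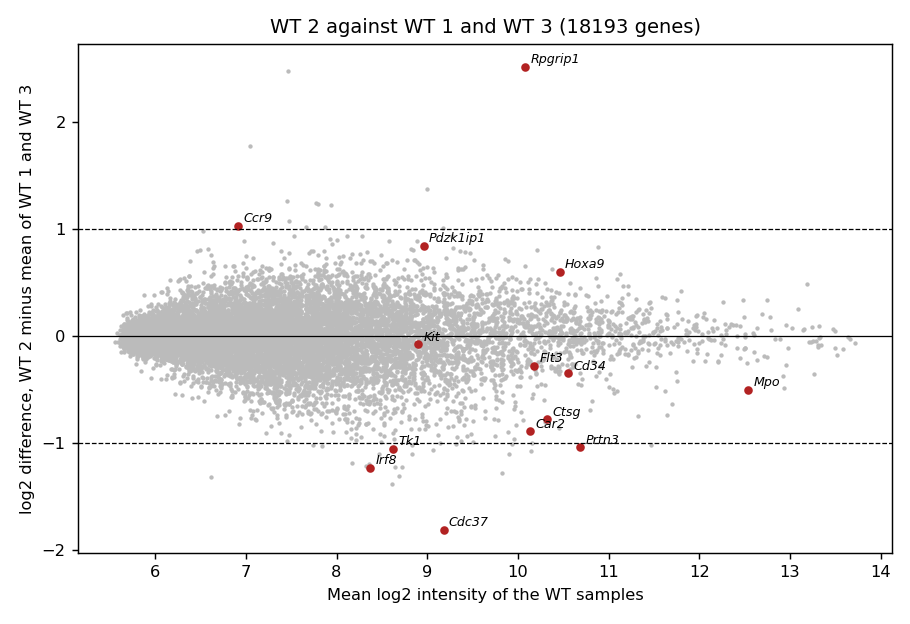
Log2 difference of WT 2 from the mean of WT 1 and WT 3 against mean log2 intensity for all 18193 genes, with named genes in red; dashed lines mark 2-fold. Most genes lie inside the lines, Rpgrip1 and Cdc37 are the labelled extremes, and Irf8, Tk1 and Prtn3 lie under the lower line while Flt3, Kit and Cd34 lie within 0.5 of 0.

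Signal and promoter composition moved together. Promoters of 300 bases were matched to 14368 of the 18193 genes (79.0%), the first listed for each gene, with 82.7% of genes clearly above and 75.4% of those near the floor matched. The ratio of CG pairs found to those expected from the C and G content had a median of 0.81 in genes clearly above, 0.70 between and 0.36 near the floor. The GC box GGGCGG was found, on either strand, in 67.1% of promoters of genes clearly above, 60% between and 35% near the floor. Over all 14368 matched genes the share was 54.1%. CGGAAG, a core of ETS factor motifs, stood in 38.3%, 25.6% and 10.8%, against 24.8% of all matched genes. These motifs can overlap by their shared CGG, and the median GC content was 61.3% in genes clearly above and 53.0% near the floor. TATAAA went the other way, with 6.65%, 7.62% and 15.4%, against 9.86% of all matched genes. Placed on the gene's strand 20 to 35 bases before the start, it was found in 0.787%, 1.92% and 4.54%. TGTGGT, a core of RUNX motifs, varied little, with 12.2%, 12.8% and 16.0%, against 13.6% of all matched genes.

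The early lineage lists had low CG ratios, as did the lists of mature cell genes. In the early myeloid list, where 7 of 12 genes were clearly above, the median CG ratio of the 11 with a promoter was 0.15, and in the early lymphoid list it was 0.16 over 9. Mature lineage genes had a median of 0.19 over 75 and genes of other tissues 0.26 over 38. Transcription factors had a median of 0.71 over 76 and receptors 0.50 over 93. The promoter of Mcm7 is shown as a CG-rich example among strong signals, at chr5:138171834-138172133 on the minus strand, with 24 CG pairs. That of Myh4, a muscle myosin near the floor at 57.4, 59.6 and 51.6, is shown as a promoter with 1 CG pair and a TATA motif 31 bases before the start, at chr11:67237562-67237861 on the plus strand.
Mcm7: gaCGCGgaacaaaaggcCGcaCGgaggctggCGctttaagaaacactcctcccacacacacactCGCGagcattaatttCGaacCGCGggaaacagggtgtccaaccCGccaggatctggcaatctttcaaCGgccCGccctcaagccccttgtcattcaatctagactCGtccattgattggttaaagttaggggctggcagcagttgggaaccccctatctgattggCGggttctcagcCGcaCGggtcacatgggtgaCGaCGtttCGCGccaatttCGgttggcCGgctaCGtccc
Myh4: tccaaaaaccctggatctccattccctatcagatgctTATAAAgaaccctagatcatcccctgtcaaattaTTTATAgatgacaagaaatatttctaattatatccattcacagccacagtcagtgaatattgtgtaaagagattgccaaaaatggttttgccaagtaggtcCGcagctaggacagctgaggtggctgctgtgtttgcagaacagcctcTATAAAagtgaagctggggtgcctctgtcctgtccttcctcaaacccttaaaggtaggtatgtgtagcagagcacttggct
The Dntt and Mpo promoters shown with their values hold 2 CG pairs each, nearer to Myh4 than to Mcm7, although all probe sets of Dntt and Mpo were clearly above.

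**Figure D5:**
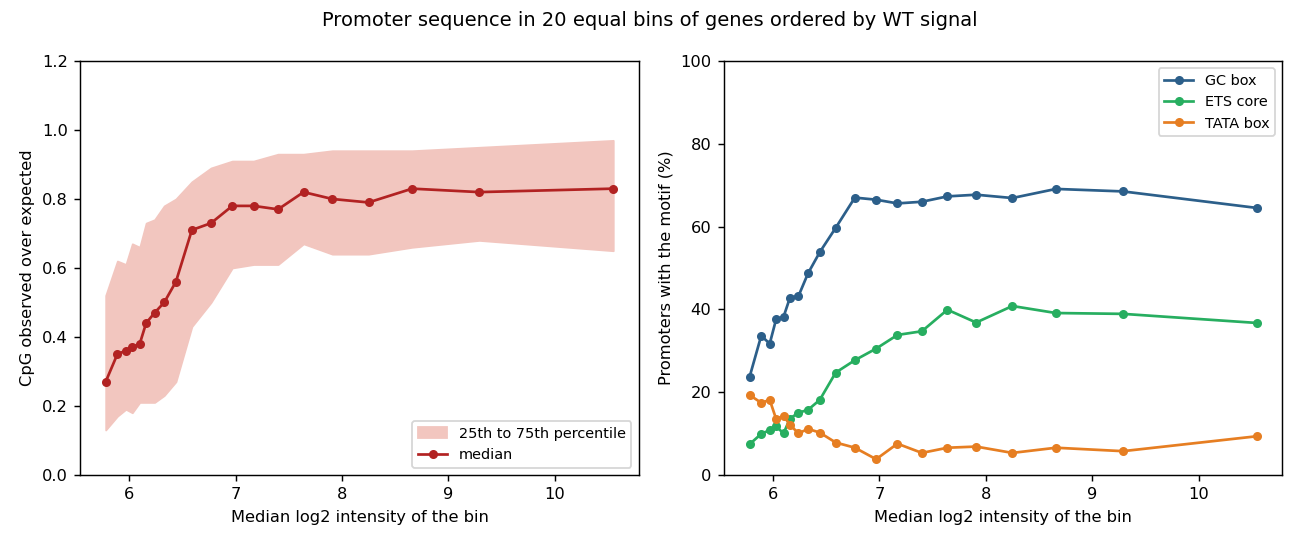
Promoter composition in 20 equal bins of genes ordered by mean log2 intensity (718 or 719 genes each): left, median and quartiles of the CG ratio; right, percent of promoters with the GC box, ETS core or TATA box on either strand. The median CG ratio rises from 0.27 in the dimmest bin to 0.83 in the brightest, with most of the rise below a log2 intensity of 7.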

How the data were processed

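RNA of the 3 WT samples had been hybridised to Affymetrix 3' expression arrays, per the labels' protocols. The authors deposited linear intensity values, 1 for each probe set on each array, as their range shows. RMA and the oligo package are named in the submitters' processing notes, without version or parameter. Any background correction is not stated there. Since log2 values had been planned for, log2 of the deposited intensities was taken with no pseudocount. How far the floor of the arrays lowers folds of dim genes was not tested.

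Of 45101 probe sets, 64 were controls. GEO's platform annotation gave 1 gene for 34945, several for 932 and none for 9160. Through the RefSeq table (GRCm38.p6) 0 symbols changed. Genes with several probe sets (9010) were clearly above in 42.3% and those with 1 (9183) in 18.7%, and the part of the brightest-probe-set rule in this was not tested.

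With 1 group there was no test, and the number of arrays limits the precision. Named genes are the sort genes, members of 31 lists (485 of 531 listed genes matched), the 30 strongest and the 10 genes in which WT 2 departed most each way. Members and lists were chosen with earlier results of these data known. The calculation of the bands was checked on simulated data. The planted members lay well inside the limits, with less spread than bright probe sets showed against WT 2. Their recovery therefore says nothing on the choice of limits. Python 3.11.15, numpy 2.4.6, pandas 2.3.3 and matplotlib 3.10.9 were used. Alternatives covered replicates, normalization, probe set summary and limits.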

Additional observations from a re-analysis of the deposited data

How the results depend on the processing

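Leaving out any 1 array kept the count of genes clearly above within 1.5 times the count reported, as did quantile normalization and treating the arrays as 3 samples. These choices left little room for change, so they say little about how firm the count is. Leaving out an array mostly relaxes a rule that asks for every array. Treating the arrays as 3 samples changes only which probe set stands for a gene, and the array medians were already close. Other choices moved counts. When all probe sets of a gene were averaged, 3606 genes and 35 receptors were clearly above, and 16 genes were over 2-fold lower and 1 higher in WT 2. With a limit 4-fold over the median, the genes clearly above were 2595, receptors 31, transcription factors 30 and mature lineage genes 4. With the 25th percentile as the low limit, 2331 genes, 4 receptors, 4 transcription factors and 8 mature lineage genes were near the floor. With the 95th percentile of the other-tissue list as the limit, 21 mature lineage genes were above it on each array, and 43 receptors, 29 transcription factors and 67 mature lineage genes were at or below it on each. Without probe sets that can match several transcripts, Lyz1 turned from above to below the median, at -0.19 on the log2 scale, and Dntt, Ighm and Myb stayed above it at 3.36, 3.28 and 2.28. Of the 180 listed genes clearly above, 170 stayed so, 5 lay between, 1 was near the floor and 4 had no other probe set. Over all genes, 33 went from clearly above to near the floor. The median CG ratio of genes clearly above exceeded that of genes near the floor by 0.45, and by 0.41 to 0.46 under the alternatives, among them only genes with 1 promoter, chosen after seeing the data. No paired analysis was possible because a single group was described. Of the 9010 genes with several probe sets, 1575 (17.5%) had both a clearly above and a near-floor probe set. Among listed genes 46 had both, beside 180 listed genes clearly above. The base like that 180 is the 5534 genes clearly above over all genes, and not the 9010.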

Other observations

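Other gene families, matched by symbol after values had been seen, varied in how many members carried a signal. Of 39 proteasome subunit genes 34 were clearly above. Of 8 genes of the GIMAP family, GTPases of lymphocytes, 3 were clearly above and 0 near the floor. Interferon regulatory factors were clearly above in 4 of 8 cases and Gata factors in 1 of 6. Of 16 Klf genes 4 were clearly above, of 19 Sox genes 2 and of 8 Pax genes 0. Keratins gave 1 of 44 clearly above and 25 near the floor. Of all genes, 30.4% were clearly above and 34.2% near the floor. The shares of Klf and GIMAP genes clearly above lay near that of all genes. In families of 6 or 8 genes a few members move the share widely, so no difference from all genes is read from them.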
